A study of Bos taurus with 8 samples.

Results

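AGPAT5 (ENSBTAG00000004922) and PCYT1B (ENSBTAG00000016107) are 2 of the 52 genes that the study listed for the metabolic pathways, out of 27607 genes counted. AGPAT5 encodes an acyltransferase that adds a fatty acid to lysophosphatidic acid, which gives phosphatidic acid, the precursor of glycerophospholipids and of stored triacylglycerol. PCYT1B encodes the beta form of CTP:phosphocholine cytidylyl transferase, which makes CDP-choline in the rate-controlling step of phosphatidylcholine synthesis, while PCYT1A encodes the alpha form. Phosphatidylcholine is the main phospholipid of mammalian cell membranes, and a preimplantation embryo builds new membrane at every cleavage. Both genes were chosen by the study for their difference between the groups compared here. That difference is therefore described below, and the test calls given for it add no independent evidence.

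RNA-Seq counts came from 8 libraries, each made from a pool of on average 5 blastocysts on day 7 after fertilization. Oocytes were collected by ovum pick-up from Polish Holstein-Friesian heifers, matured in vitro, fertilized with semen of a single bull and cultured in synthetic oviduct fluid, in the same way in both groups. Ovarian ultrasound and age defined the donors: a corpus luteum or dominant follicle was seen in the pubertal heifers (the controls, over 15 months of age) but not in the prepubertal ones (under 10 months). The cumulus-oocyte complexes were pooled within each group before maturation, so different pools can share donors, and the p values given here measure the spread between pools. All libraries were labelled female.

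Samples 1, 2, 3 and 8 were taken as prepubertal and samples 4, 5, 6 and 7 as pubertal. This is the grouping behind the gene list from which both genes come. The sample labels give the opposite group for samples 4 and 8. The fold changes of AGPAT5 and PCYT1B and their correlation are therefore also given with the groups of the labels and without these 2 libraries. Reads counted on genes ranged from 20112044 (sample 3) to 24831086 (sample 8) in the prepubertal group and from 18510164 (sample 7) to 29549143 (sample 4) in the pubertal group. Samples 3 and 7 stood apart from the rest. In these, 45.4% and 52.1% of the uniquely mapped reads were assigned to genes, against 57.9% to 63.6% in the other 6 libraries. Levels are given as CPM, the reads of a gene per 1000000 reads counted on all genes of the library. CPM takes no account of transcript length, so the levels of different genes were not compared with each other. In pools of whole embryos, fewer cells that express a gene and less RNA per cell cannot be told apart. The blastocyst label could hardly be checked, because the counts carry identifiers without symbols. Only 1 of 26 markers of blastocyst and cumulus cells, PTGS2, could be matched. It was listed here for the trophectoderm, but 1 gene cannot tell these cell types apart, and no cell type is read from its level. PTGS2, which is also among the 52 genes, had 695.1 to 928.3 CPM in the prepubertal and 230.3 to 672.9 CPM in the pubertal libraries, while with the groups of the labels its ranges overlapped (672.9 to 928.3 and 230.3 to 872.3 CPM). Its part in the differences described here was not tested.

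AGPAT5, the acyltransferase, was on average 1.61-fold higher in blastocysts from pubertal heifers, but the groups overlapped. The prepubertal libraries had 76.6 CPM (sample 1), 57.9 CPM (sample 2), 38.6 CPM (sample 3) and 57.8 CPM (sample 8). The pubertal libraries had 62.0 CPM (sample 4), 112.0 CPM (sample 5), 114.7 CPM (sample 6) and 82.8 CPM (sample 7). Samples 5 and 6 were the highest of all and sample 3 the lowest, while the pubertal sample 4 lay below the prepubertal sample 1. Mean AGPAT5 was 57.7 ± 15.5 CPM for prepubertal and 92.9 ± 25.2 CPM for pubertal donors (SD, n = 4 each). The log2 fold change of edgeR, which scales the libraries by its TMM factors, was 0.73 (standard error 0.24).

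The AGPAT5 difference was of similar size whichever group samples 4 and 8 were placed in. These libraries had nearly the same AGPAT5 level, 62.0 and 57.8 CPM. With the groups of the labels the means were 58.8 ± 15.7 CPM and 91.8 ± 26.9 CPM (SD, n = 4), and the log2 fold change was 0.68 (standard error 0.25). Without both libraries the 3 pubertal libraries, at 82.8 CPM or more, all lay above the 3 prepubertal ones, at 76.6 CPM or less, and the log2 fold change was 0.89 (standard error 0.25). With these 6 libraries, 1045 of the 15513 genes that passed edgeR's low-count filter with all 8 libraries (6.74%) had all pubertal above all prepubertal values, and nothing is read from this share.

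PCYT1B, the enzyme that makes CDP-choline, was on average 1.70-fold higher in blastocysts from pubertal heifers, and here the groups did not overlap. The prepubertal libraries had 3.22 CPM (sample 1), 3.81 CPM (sample 2), 5.32 CPM (sample 3) and 4.91 CPM (sample 8). The pubertal libraries had 6.90 CPM (sample 4), 6.71 CPM (sample 5), 8.15 CPM (sample 6) and 7.56 CPM (sample 7). The highest prepubertal library, sample 3, stayed below the lowest pubertal one, sample 5. The means were 4.32 ± 0.97 CPM and 7.33 ± 0.66 CPM (SD, n = 4 libraries in each), with a log2 fold change of 0.81 (standard error 0.20). Of the same 15513 genes, 365 (2.35%) had all 4 pubertal above all 4 prepubertal libraries. Nothing is read from this share, since PCYT1B was listed on the same contrast.

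PCYT1B rested on few reads, and its group difference was smaller with the groups of the labels. Between 80 reads (sample 1) and 229 reads (sample 6) were counted per library. The exact 95% Poisson interval was 4.36 to 6.43 CPM in sample 3 and 5.77 to 7.76 CPM in sample 5, and these intervals of the neighbouring libraries of the opposite groups overlapped. Such intervals cover counting error only. With the groups of the labels, sample 4 had the highest PCYT1B level of the prepubertal and sample 8 the lowest of the pubertal libraries. The groups then overlapped, at 4.81 ± 1.65 and 6.83 ± 1.41 CPM (SD, n = 4), and the log2 fold change was 0.54 (standard error 0.27). Without both libraries the log2 fold change was 0.92 (standard error 0.24), and the groups did not overlap, as in the 6.74% of genes with higher pubertal values in these 6 libraries.

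**Figure D1:**
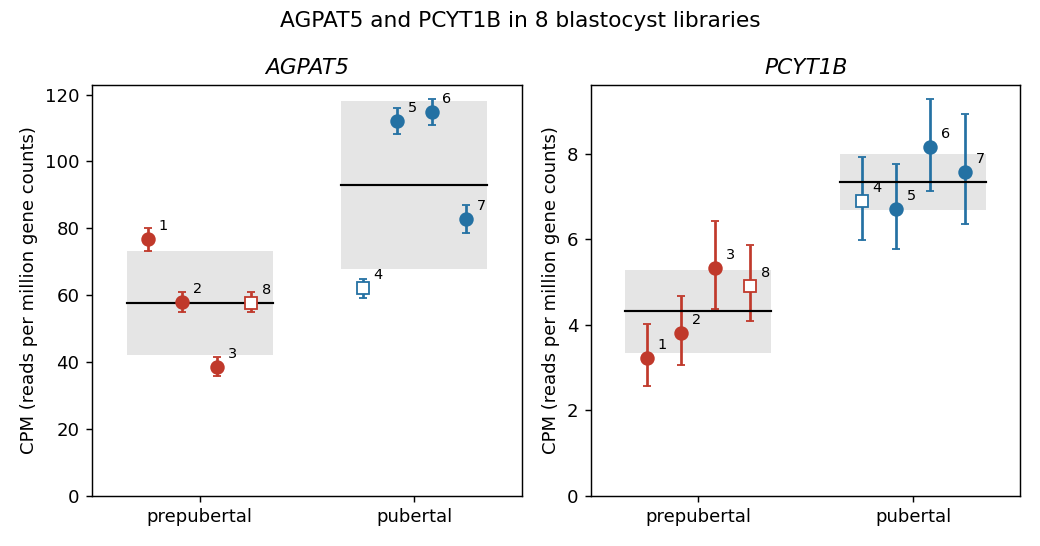
CPM (reads per 1000000 gene counts) of AGPAT5 and PCYT1B in each library, with the sample number beside each point, exact 95% Poisson intervals as error bars, the group mean as a line and ± 1 SD as a grey band (n = 4 libraries per group). Open squares are samples 4 and 8, whose labels give the other group; sample 4 of the pubertal group lies below sample 1 in AGPAT5, while all pubertal libraries lie above the prepubertal ones in PCYT1B.

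A gene was called where its adjusted p was below 0.05 and it differed by more than 1.2-fold, the thresholds named in the study's methods. With these, edgeR's quasi-likelihood test called neither gene, and none of the 15513 genes tested (0%). At an unadjusted p under 0.05 edgeR gave 1681 of the 15513 genes, and nothing is read from this count. DESeq2 called 128 of the 13933 genes with an adjusted p (0.919%), among them PCYT1B but not AGPAT5. The study's methods name DESeq2 with these thresholds and its list holds AGPAT5, so its call of AGPAT5 was not repeated here. The reason was not tested. As both genes were listed on this contrast with these libraries, the calls add no independent evidence on either.

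The genes differed in their spread between libraries of the same group, which is described here without a test, because a listing by a test depends on this spread too. The coefficient of variation of AGPAT5 was 26.9% in the prepubertal and 27.1% in the pubertal group. With 776 to 3223 reads per library, its Poisson counting error was 1.76% to 3.59%. This takes each read as a separate molecule, so it is too low where copies of the same molecule were counted. The biological coefficient of variation that edgeR fitted for AGPAT5 was 23.7%, against a median of 11.9% over the 500 tested genes closest to it in mean level, and 97.4% of these varied less than AGPAT5. PCYT1B varied by 22.5% in the prepubertal and 8.95% in the pubertal group, beside a counting error, computed in the same way, of 6.61% to 11.2%. The 95% Poisson intervals of the 4 pubertal libraries all overlapped one another. Its fitted biological coefficient of variation was 22.5%, with a median of 25.8% over the 500 genes closest in level, of which 13.0% had a lower value. For each gene edgeR draws the fitted value toward that of genes of similar level, so it is not the gene's own spread alone. By these fitted values AGPAT5 was among the more variable genes of its level, and PCYT1B among the less variable ones. These values hold for the groups used here. With the groups of the labels the coefficients of variation in the prepubertal and pubertal group were 34.3% and 20.6% for PCYT1B, and 26.7% and 29.3% for AGPAT5.

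Within the groups, the order of the libraries was not the same for both genes. In the prepubertal group their orders were opposite. Sample 1 had the most AGPAT5 and the least PCYT1B, sample 3 the least AGPAT5 and the most PCYT1B, and samples 2 and 8 lay between. Samples 2 and 8 had nearly the same AGPAT5 level (57.9 and 57.8 CPM), with overlapping 95% Poisson intervals. With the groups of the labels the prepubertal orders were not opposite, since sample 4 had the most PCYT1B but more AGPAT5 than samples 2 and 3. In the pubertal group, sample 6 was the highest for both genes, but sample 5, with nearly as much AGPAT5 as sample 6, had the least PCYT1B. The pubertal order depended on the scaling, since with TMM-scaled CPM sample 5 had the most AGPAT5 (121.6 against 115.8 in sample 6) and sample 4 the least PCYT1B (6.82 against 7.28 in sample 5). The reads of AGPAT5 per read of PCYT1B ran from 7.25 (sample 3) over 11.8 (sample 8) and 15.2 (sample 2) to 23.8 (sample 1) in the prepubertal libraries. In the pubertal libraries they were 8.98 (sample 4), 10.95 (sample 7), 14.1 (sample 6) and 16.7 (sample 5). This ratio does not depend on the scaling of the libraries, and its range in the pubertal group lay inside that of the prepubertal group. The means were 14.5 ± 6.996 and 12.7 ± 3.40 reads (SD, n = 4 libraries in each).

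To leave out the group difference, each group's mean was subtracted from log2(CPM + 1) before the genes were correlated. Over the 8 libraries Pearson's r was -0.46 (two-sided exact permutation test within groups, p = 0.299) and Spearman's rho was -0.50 (exact permutation test, p = 0.257). Adjusted over the 7 relations tested, which are described here and below, these p values were 0.379 and 0.872 (exact permutation tests, Benjamini-Hochberg). Without samples 3 and 4, the libraries farthest from the median in AGPAT5, r was -0.50 (exact permutation test, p = 0.361). Leaving out each library in turn gave values between -0.73 without sample 4 and -0.14 without sample 3. With the groups of the labels it was 0.11 (exact permutation test, p = 0.785), and without samples 4 and 8 it was -0.82 (exact permutation test, p = 0.167). With TMM-scaled CPM it was -0.35 (exact permutation test, p = 0.469). A relation between the genes within groups was thus not detectable with 8 libraries, and its sign changed with the groups of the labels. Within a single group of 4 libraries Spearman's rho cannot reach 0.05, its smallest exact permutation p being 0.0833.

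**Figure D2:**
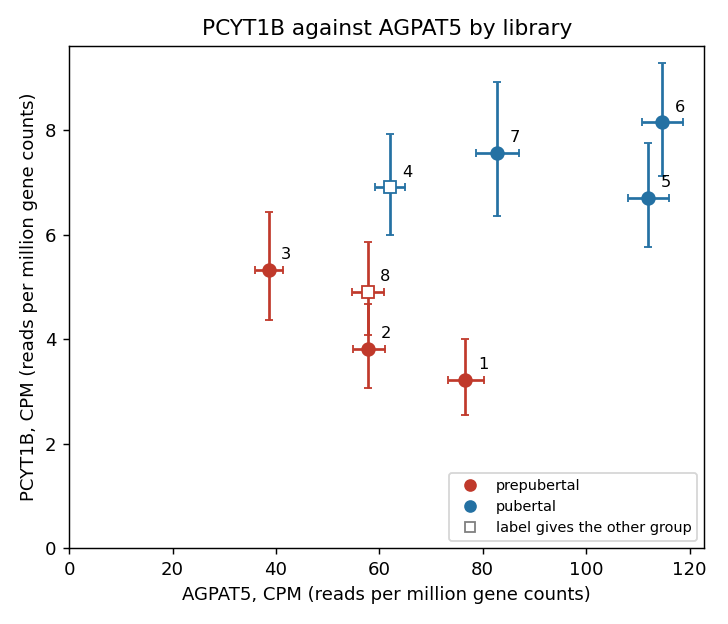
PCYT1B against AGPAT5 in the 8 libraries, both in CPM (reads per 1000000 gene counts), with sample numbers and exact 95% Poisson intervals. The prepubertal points run from sample 3 (38.6 CPM of AGPAT5, 5.32 CPM of PCYT1B) down to sample 1 (76.6 and 3.22 CPM), and the pubertal points lie above all of them in PCYT1B.

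Depth and the share of reads on genes were set beside both genes in the same way. The group-centred r of AGPAT5 was 0.53 with the share of uniquely mapped reads assigned to genes (exact permutation test, p = 0.229), -0.42 with the number of genes that had a read (p = 0.325, exact) and 0.30 with the log2 total of gene counts (p = 0.597, exact). For PCYT1B the values had the opposite signs, at -0.54 (exact permutation test, p = 0.250), 0.44 (p = 0.321, exact) and -0.34 (p = 0.323, exact). Spearman's rho ranged from -0.14 to 0.26 for AGPAT5 and from -0.38 to 0.31 for PCYT1B (exact permutation p from 0.361 to 0.872, each 0.872 after adjustment). After adjustment over the 7 relations, every p of Pearson's r was 0.379 or more (exact permutation tests, Benjamini-Hochberg). Samples 3 and 7 were the 2 farthest libraries in all 3 measures. Without them, r with the share of assigned reads was -0.27 for AGPAT5 and -0.02 for PCYT1B, r with the number of genes that had a read was 0.52 and -0.22, and r with the log2 total was -0.70 and 0.04 (exact permutation tests, p from 0.472 to 0.972). The sign thus changed in all of these but that of PCYT1B with the assigned share, which was then close to 0, so the relations rested on samples 3 and 7. With the assigned share as a covariate, the log2 fold change was 0.58 (standard error 0.22) for AGPAT5 and 0.89 (standard error 0.22) for PCYT1B. The log2 fold changes without samples 3 and 7 were 0.63 (standard error 0.24) for AGPAT5 and 0.91 (standard error 0.26) for PCYT1B, and r between the genes was then -0.12 (exact permutation test, p = 0.694).

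The other genes of phospholipid and inositol metabolism among the 52 are ETNPPL, ISYNA1, ITPK1 and INPP5F. They were listed by the study on the same contrast, so their differences too are a description. In the pubertal group 2 of the 4 had higher and 2 lower values, with a median log2 fold change of 0.03, against 28 higher and 24 lower and a median of 0.29 among all 52 listed genes. The median over all 15513 genes tested was -0.02. Of a wider list of 33 genes of phospholipid synthesis, only AGPAT5, PCYT1B and ETNPPL could be matched to identifiers, so the acyltransferases of the first step, PCYT1A and the choline kinases were not analysed here.

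ETNPPL encodes the lyase that breaks down phosphoethanolamine, which takes this precursor away from phosphatidylethanolamine synthesis. Its prepubertal libraries had 20.2 CPM (sample 1), 19.7 CPM (sample 2), 10.8 CPM (sample 3) and 19.0 CPM (sample 8). The pubertal libraries had 26.4 CPM (sample 4), 38.1 CPM (sample 5), 46.2 CPM (sample 6) and 18.0 CPM (sample 7). As with AGPAT5, samples 5 and 6 were the highest and sample 3 the lowest, and the groups overlapped, here through sample 7. They also overlapped without samples 4 and 8 and with the groups of the labels. The log2 fold change was 0.93 (standard error 0.29).

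The 3 genes of inositol metabolism had groups that did not overlap, as had 820 of the 15513 genes tested (5.29%), counted in either direction. ISYNA1, the synthase that makes inositol phosphate from glucose 6-phosphate, had 28.8 to 44.0 CPM in the prepubertal libraries, with the highest value in sample 3, and 19.8 to 26.2 CPM in the pubertal ones. Its log2 fold change was -0.48 (standard error 0.14). INPP5F, a phosphatase of phosphoinositides, had 66.9 to 74.7 CPM and 44.7 to 63.5 CPM, with a log2 fold change of -0.39 (standard error 0.10). ITPK1, a kinase of inositol phosphates, had 84.5 to 108.1 CPM and 117.4 to 131.6 CPM, with a log2 fold change of 0.44 (standard error 0.10). Without samples 4 and 8 these 3 genes had no overlap either, as had 2613 of the 15513 genes (16.8%), but with the groups of the labels all 3 overlapped, while 569 of the 15513 genes (3.67%) did not. In ITPK1, sample 4 had the highest of all levels and sample 8 the second lowest, and the ratio of the group means fell from 1.32 to 1.09 with those groups.

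**Figure D3:**
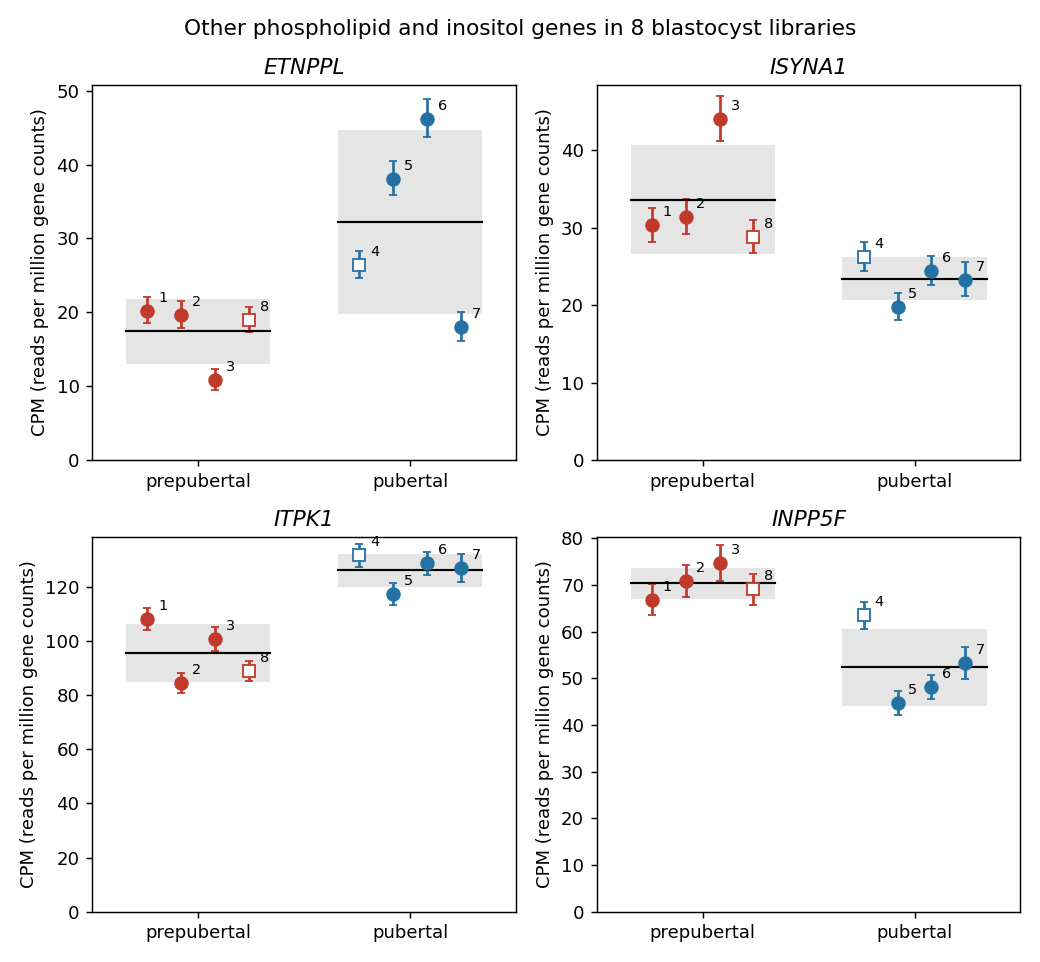
CPM (reads per 1000000 gene counts) of ETNPPL, ISYNA1, ITPK1 and INPP5F in each library, with sample numbers, exact 95% Poisson intervals, the group mean as a line and ± 1 SD as a grey band (n = 4 libraries per group); open squares are samples 4 and 8, whose labels give the other group. ETNPPL reaches 38.1 and 46.2 CPM in samples 5 and 6 and overlaps between the groups, and the other genes do not overlap.

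To see which listed genes had a pattern like that of each gene, the group-centred log2(CPM + 1) was compared over the 8 libraries with that of the other 50 listed genes. These r values are descriptions, and all genes share the same libraries and depth. The genes most like AGPAT5 were DNMT1 (r = 0.91), the maintenance DNA methyltransferase, MARS1 (r = 0.82), the methionyl-tRNA synthetase, ETNPPL (r = 0.77), PCK2 (r = 0.76), the mitochondrial phosphoenolpyruvate carboxykinase, and PSPH (r = 0.72), the phosphatase of the last step of serine synthesis. Among the 15512 other genes tested, 70 (0.451%) had an r with AGPAT5 at least as high as DNMT1. The counts were 262 (1.69%) for MARS1, 414 (2.67%) for ETNPPL, 416 (2.68%) for PCK2 and 600 (3.87%) for PSPH. DNMT1 had 83.6, 75.03, 68.6 and 74.6 CPM in samples 1, 2, 3 and 8, and 82.5, 93.2, 103.4 and 95.2 CPM in samples 4, 5, 6 and 7. It thus shared with AGPAT5 the highest prepubertal value in sample 1, the lowest in sample 3 and the lowest pubertal value in sample 4. Among the pubertal libraries PCK2 was highest in samples 5 and 6 as well, at 31.8 and 54.3 CPM, against 20.8 and 21.02 CPM in samples 4 and 7.

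The genes most unlike AGPAT5 were GULO (r = -0.92), the gene of the last enzyme of vitamin C synthesis, and ENO1 (r = -0.88), a glycolytic enolase. Within the prepubertal group, ENO1 was highest in sample 3 (287.0 CPM) and lowest in sample 1 (228.3 CPM), where AGPAT5 was lowest and highest. Within the pubertal group it was highest in sample 4 (227.1 CPM) and lowest in sample 6 (129.3 CPM), again the reverse of AGPAT5 in CPM. Of the 15512 other genes, 189 (1.22%) had an r with AGPAT5 as low as GULO or lower, and 410 (2.64%) as low as ENO1 or lower. Among the genes of phospholipid and inositol metabolism, r with AGPAT5 was 0.77 for ETNPPL, -0.87 for INPP5F, -0.75 for ISYNA1 and -0.09 for ITPK1. An r as low as that of INPP5F was found for 513 genes (3.31%), and one as low as that of ISYNA1 for 1642 (10.6%). Apart from ITPK1, whose r was 0.55 with the groups of the labels, the relations of AGPAT5 named here kept their sign with the groups of the labels, without samples 4 and 8, without samples 3 and 7 and with each library left out. The genes most like and most unlike AGPAT5 were picked by r in these same libraries, so their kept sign is not independent evidence. The r of DNMT1 lay between 0.84 and 0.97 with single libraries left out, and that of PSPH between 0.57 and 0.79.

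The genes most like PCYT1B were others. They were NME1 (r = 0.79), a nucleoside diphosphate kinase, ALDOC (r = 0.78), a glycolytic aldolase, ATP5MF (r = 0.70), a subunit of the ATP synthase, COX17 (r = 0.66), a copper chaperone of cytochrome c oxidase, and STS (r = 0.63), the steroid sulfatase. Among the 15512 other genes, 427 (2.75%) had an r with PCYT1B at least as high as NME1, 513 (3.31%) as ALDOC, 1049 (6.76%) as ATP5MF, 1398 (9.01%) as COX17 and 1758 (11.3%) as STS. The r values of ATP5MF, COX17 and STS were thus common among all genes. Within the groups, NME1 was highest in the same libraries as PCYT1B, at 17.7 CPM in the prepubertal sample 3 and 27.4 CPM in the pubertal sample 6. The lowest r was that of NDUFS3 (r = -0.61), a subunit of complex I, followed by GPX3 (r = -0.57), a secreted glutathione peroxidase, and 593 (3.82%) and 718 (4.63%) of the other genes had an r as low or lower. With the groups of the labels, r was 0.93 for NME1, 0.87 for ATP5MF and 0.90 for COX17, but it changed sign for ALDOC (-0.44), STS (-0.39) and NDUFS3 (0.60). Single libraries also mattered more for some genes here, as r lay between 0.24 and 0.83 for COX17 and between -0.74 and -0.05 for NDUFS3 when each library was left out. For NME1 it lay between 0.70 and 0.96 and for ATP5MF between 0.63 and 0.82, but these genes too were picked by r in the same libraries. ETNPPL, which was among the genes most like AGPAT5, had an r of -0.33 with PCYT1B, which was 0.27 with the groups of the labels and 0.22 without samples 3 and 7. Among the inositol genes, r with PCYT1B was 0.52 for ISYNA1, 0.15 for INPP5F and -0.13 for ITPK1. With the groups of the labels these became -0.22, -0.49 and 0.76, so each changed sign. For ISYNA1 r was 0.97 without samples 4 and 8 and 0.01 without samples 3 and 7. An r as high as that of ISYNA1 was found for 2997 genes (19.3%). The r of -0.46 between AGPAT5 and PCYT1B was matched or undercut by 1303 of the 15512 other genes (8.40%) in their r with PCYT1B, where the median was 0.17, and by 5073 (32.7%) in their r with AGPAT5, where the median was -0.21.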

How the data were processed

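Total RNA of 8 blastocyst pools (RNA integrity values 5.5 to 7) was made into libraries with a stranded SMARTer Pico kit and sequenced in 75 single-end cycles. After trimming by Flexbar and mapping by STAR to ARS-UCD1.2, the authors deposited raw counts per Ensembl gene (annotation version 105) from HTSeq-count. The submitters' processing notes also name RSEM. For the tools' versions, the counting strand and molecular identifiers, details were not given in the sources used here. Reads that copy the same molecule may therefore be counted repeatedly, and reads of overlapping or antisense genes are uncertain. Reads mapped to several loci (11.5% to 17.2% of mapped reads), outside genes (35.8% to 54.1% of uniquely mapped reads) or ambiguous (0.448% to 0.581%) were left out of library sizes and tests.

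The quasi-likelihood test of edgeR 4.0.16 (R 4.3.3) was run without covariates after filterByExpr and TMM scaling, and DESeq2 1.42.0 was an alternative, both with Benjamini-Hochberg adjustment over all genes. Both genes had at least 80 reads in every library. The standard error of a log2 fold change was derived from edgeR's F value. Correlations used log2(CPM + 1) less the group means, with all 576 reorderings within groups. The fits and the correlation were tested on simulated data. No pair of libraries in a group matched within counting noise, as the same library deposited again would (chi-square of 21.5 to 53.1 per degree of freedom); this does not show that pools had separate donors. Exact Poisson intervals cover counting error only.

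The members, lists and tests were chosen with earlier results of these data known. Genes named beyond AGPAT5 and PCYT1B are the other phospholipid and inositol genes among the 52, and for each member the 5 listed genes with the highest and the 2 with the lowest group-centred r. Names come from the study's lists, since the reference gene table (ARS-UCD2.0) pairs no Ensembl identifiers. Other alternatives were the label groups, leaving out samples 4 and 8 or each library in turn, no TMM, other low-count filters, a covariate and a pseudocount of 0.1; leaving out samples 3 and 7 was chosen after seeing the data.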

Additional observations from a re-analysis of the deposited data

Results flagged for a closer look

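In 2 of 38 groups of 4 libraries examined, 1 library lay far from the other 3 by Dixon's criterion, which chance alone meets in about 1 in 20 groups. ETNPPL had 10.8 CPM in sample 3, against 19.0 to 20.2 CPM in the other prepubertal libraries. Sample 3 also had the lowest AGPAT5 level (38.6 CPM) and the lowest share of uniquely mapped reads assigned to genes (45.4%); the part of that share in the ETNPPL value was not tested. ALDOC had 13.8 CPM in sample 1, against 18.7 to 19.6 CPM in the other prepubertal libraries. Sample 1 also had the lowest PCYT1B level, but ALDOC was examined for its high r with PCYT1B, so a shared low library adds no evidence.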

How the results depend on the processing

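AGPAT5 and PCYT1B kept the direction of their fold change under all 16 alternatives each, with log2 fold changes of 0.57 to 0.92 for AGPAT5 and 0.54 to 0.92 for PCYT1B. With single libraries left out these were 0.57 to 0.92 and 0.72 to 0.91. For PCYT1B, only the groups of the labels (0.54) moved the value by more than the spread between libraries. The correlation within groups was -0.46 and became 0.11 with the groups of the labels; the cause was not tested. It lay between -0.73 and -0.14 with single libraries left out, and no alternative brought its exact permutation p under 0.05. edgeR called 0 genes, but 11 without samples 4 and 8 and 25 with no filter on low counts, and DESeq2 called 128. With single libraries left out, edgeR called 0 to 8 genes: 8 without sample 4, 5 without sample 1, 4 without sample 8, 3 without sample 7 and 0 otherwise. Groups did not overlap in either direction in 820 genes, in 2613 without samples 4 and 8, in 1830 without samples 3 and 7 and in 1121 to 2034 with single libraries left out (2034 without sample 1, 1860 without 4, 1446 without 7, 1352 without 8), where fewer libraries make overlap less likely. Depth limits PCYT1B, with 80 to 229 reads per library, more than AGPAT5.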
